A study of Mus musculus with 5 samples.

Results

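Contacts of the genes Nom1 and Mnx1 with the regulatory domain of Shh were measured by 5C (chromosome conformation capture carbon copy), which counts ligation products between cross-linked restriction fragments by sequencing the products of forward primers joined to reverse primers. The members were chosen by position alone. They are the primer pairs with one HindIII fragment centred in the Nom1/Mnx1 interval (chr5:29745087-29829086, 84 kb) and the other centred in the Shh domain up to Lmbr1 (chr5:28765087-29549086, 784 kb), on mouse genome mm9. This gave 1648 of the 33306 primer pairs deposited for each library, and of the 31328 pairs within the Shh region. They join 21 fragments of the interval to 157 fragments of the domain, across a gap of 196 kb that holds Lmbr1, at separations of 206 to 1063 kb (median 609 kb). The question was whether Mnx1 and its neighbour reach into the Shh domain, and whether the body differs from limb and head.

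All tissues came from mouse embryos of the strain CD1 at mid-gestation (E11.5), and the labels name no treatment of the animals and no genetic change in any group. The limb group held 2 libraries (limb replicates 1 and 2), described by the authors as biological replicates, from whole limb buds pooled over many embryos. The body group was 1 library from embryos without limbs and heads. The head group was 1 sample with 2 technical libraries, which were summed. Each tissue is a mixture of cell types, the Shh-expressing cells are few in a whole limb bud, and motor neurons are one population among many in the body. 5C carries no expression values, so the labelled tissues could not be checked against marker genes. In such mixtures, fewer cells with a contact and a weaker contact per cell cannot be told apart.

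Shh encodes a secreted signalling protein that patterns the limb and the neural tube. Its long-range enhancers lie far upstream, in the gene desert and in introns of its neighbours. Mnx1 encodes a homeodomain transcription factor of motor neurons and of the pancreas, and Nom1 encodes a nucleolar protein with an MIF4G domain. Chromatin contacts are more frequent within a topologically associating domain (TAD) than between neighbouring TADs, and fall with distance along the chromosome.

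On mm9, Nom1 lies on the plus strand at chr5:29761204-29780046 (ENSMUSG00000001569) and Mnx1 on the minus strand at chr5:29799578-29805059 (ENSMUSG00000001566). Nom1 is covered by 7 fragments with a primer, 6 of which hold exon sequence, and these give 549 of the 1648 pairs. Mnx1 lies whole in 1 fragment of 8140 bases, which also holds 303 bases upstream of its 5′ end and gives 78 pairs. The other 13 fragments of the interval touch neither gene and give 1021 pairs. Each 5C primer anneals at a cut end of its fragment, so the cut sites define what a contact joins. The ends of the Mnx1 fragment, of the fragment with the Nom1 5′ end, and of a fragment in Shh and one next to it are shown on the plus strand, with the HindIII site in capitals. None of these stretches lies in an annotated untranslated region.
Mnx1 fragment, lower end, chr5:29797196-29797249: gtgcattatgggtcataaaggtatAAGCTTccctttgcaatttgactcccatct
Mnx1 fragment, upper end, chr5:29805336-29805389: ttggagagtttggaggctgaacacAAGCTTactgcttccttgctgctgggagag
Nom1 5′ fragment, lower end, chr5:29757635-29757688: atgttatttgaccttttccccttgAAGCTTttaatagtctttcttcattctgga
Nom1 5′ fragment, upper end, chr5:29764896-29764949: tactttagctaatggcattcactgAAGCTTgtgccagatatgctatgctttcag
Shh 3′ flank fragment, lower end, chr5:28770670-28770723: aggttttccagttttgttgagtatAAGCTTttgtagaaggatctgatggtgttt
Shh 3′ flank fragment, upper end, chr5:28780537-28780590: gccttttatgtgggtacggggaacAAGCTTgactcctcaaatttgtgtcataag
Shh fragment, lower end, chr5:28782608-28782661: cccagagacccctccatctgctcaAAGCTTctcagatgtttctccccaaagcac
Shh fragment, upper end, chr5:28789498-28789551: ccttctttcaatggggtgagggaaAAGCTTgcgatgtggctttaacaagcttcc
All 354 fragment starts of the Shh region (100%) lay inside such an AAGCTT on the reference sequence.

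The 5 libraries held 675954 (limb replicate 1), 1714491 (limb replicate 2), 1056071 (body), 1048682 and 931061 reads (head). The members took 6894, 17263 and 6224 reads in the limb libraries and body, and 24856 in head. Interaction frequency (IF) is used here for the reads per primer pair, unread pairs included, per 1000 reads of the sample. The smallest IF that 3 reads on 1 pair can give was 0.00444, 0.00175, 0.00284 and 0.00152 in limb replicates 1 and 2, body and head. Of the 1648 pairs, 40.6% and 45.1% had a read in the limb libraries, 57.4% in body and 51.1% in head. At the depth of limb replicate 1, the shares were 40.6%, 40.9% and 52.7% in limb replicates 1 and 2 and body, and 33.9% and 24.9% in the head libraries. The body thus spread its member reads over the largest share of pairs. The head libraries ranked the 84 pairs of 28-kb windows less alike (Spearman's rho 0.134) than the limb replicates did (0.636), so head values of single windows are given by library where the 2 libraries differ. In the Shh region, 8 single primer pairs stood far above their neighbours ("isolated contacts"). None is a member, but they took 12.7% and 7.40% of all reads in the limb libraries, 0.134% in body, with 5.33% and 16.2% in the head libraries, and so lower every IF of limb and head relative to body.

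Nom1 and Mnx1 were read with the Shh domain in every sample, above the interchromosomal background but at a low level for their distance. The IF was 0.00619 (Wilson 95% interval 0.00604 to 0.00634) in limb replicate 1 and 0.00611 (0.00602 to 0.00620) in limb replicate 2. It was 0.00358 (0.00349 to 0.00367) in body and 0.00762 (0.00752 to 0.00771) in head. The limb mean was 0.00615 ± 0.0000558 (SD, n = 2), body lay below both limb replicates, and head lay above them. The background was taken from the same interval primers paired with 11 primers of the Usp22 control region on another chromosome (115 pairs), which drew 20, 59, 31 and 154 reads in limb replicates 1 and 2, body and head. The IF with the Shh domain was 24.1, 20.4, 14 and 11.3 times that background (geometric mean 16.7, higher in 4 of 4 samples, two-sided exact sign-flip permutation p = 0.13). With 4 samples, this p, from 2 of 16 sign assignments, is the smallest that the test can give. The head value rests on the second library, which held 149 of its 154 Usp22 reads, and the ratio was 184 in one head library against 5.47 in the other.

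Against all primer pairs of the Shh region at the same separation (in 28-kb steps), the members were about as far below expectation in all tissues. The observed over expected ratio (O/E) was 0.464 and 0.497 in the limb libraries, 0.50 in body and 0.556 in head (mean 0.504 ± 0.0380, SD, n = 4). The samples lay close together and all below 1. Leaving out the isolated contacts, which enter the expected value, moved the ratios to 0.580, 0.548, 0.502 and 0.652.

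The first comparison was with pairs within the Shh domain. At 196 to 784 kb, where 1238 member pairs (75.1%) could be compared at the same separation, member pairs had an IF of 0.00628 in limb replicate 1, against 0.0293 for pairs within the domain. The IFs were 0.00594 against 0.0238 in limb replicate 2, 0.00333 against 0.0144 in body and 0.00709 against 0.0275 in head. The members were thus lower in 4 of 4 samples, with ratios of 0.215, 0.25, 0.232 and 0.257 (geometric mean 0.238, exact sign-flip permutation p = 0.13, the smallest possible). The ratio in body lay between those of the limb replicates. Without the isolated contacts it was 0.349, 0.307, 0.233 and 0.352 in limb replicates 1 and 2, body and head, and with every primer balanced to the same total of reads 0.404, 0.298, 0.244 and 0.404, so that body was the lowest under both alternatives.

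Lmbr1, which holds the limb enhancer of Shh (the ZRS) in an intron, lies between the domain and Nom1. Over 1528 members (92.7%), the ratio to pairs of Lmbr1 with the domain at the same separation was 0.305 and 0.273 in the limb libraries, 0.246 in body and 0.367 in head (geometric mean 0.294, exact sign-flip permutation p = 0.13). En2, a homeobox gene of the midbrain and hindbrain, and its neighbour Cnpy1 lie beyond the opposite end of the Shh domain. Against pairs of the En2/Cnpy1 interval with the domain, the ratios were 0.944 and 0.891 in the limb libraries, 0.946 in body and 1.10 in head. Their geometric mean was 0.967 (SD of the log2 ratio 0.13, exact sign-flip permutation p = 0.5). Nom1 and Mnx1 were therefore read with the Shh domain about as often as the genes on its other flank, with values on both sides of 1, and the mean became 1.02 without the isolated contacts.

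**Figure D1:**
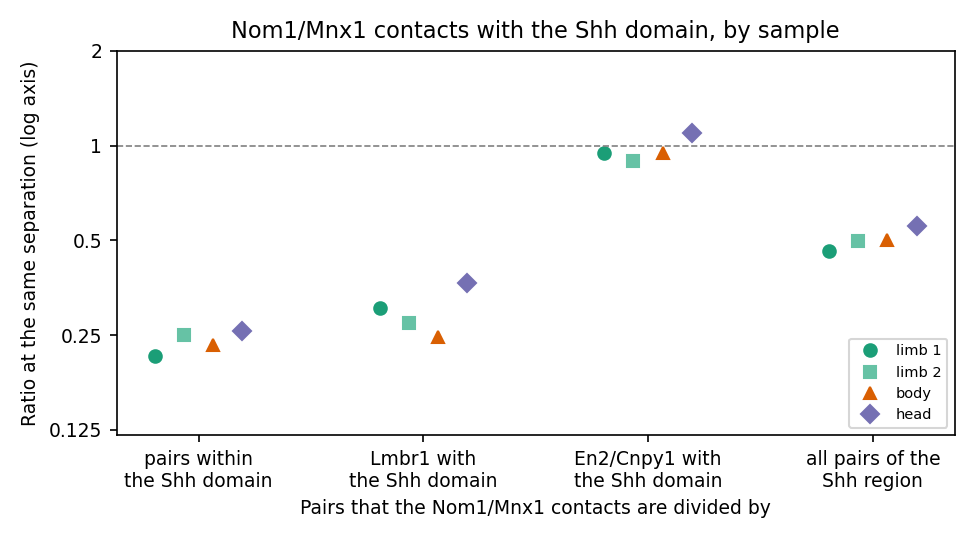
Each point is the interaction frequency of Nom1/Mnx1 with the Shh domain in 1 sample, divided by that of the pairs named on the x axis at the same separation (log2-spaced y axis, dashed line at 1). The points lie between 0.215 and 0.257 against pairs within the domain and between 0.246 and 0.367 against Lmbr1, but between 0.891 and 1.10 against En2/Cnpy1.

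Along the domain, the contacts did not fall evenly with distance. The window of Shh itself (chr5:28765087-28793086, 52 pairs), the farthest from Mnx1, had the highest O/E of the 28 windows in both limb replicates and in body, and rank 3 in head. It drew 432 and 1058 reads in the limb libraries, 646 in body and 1110 in head. The IF was nearly the same in all, at 0.0123, 0.0119, 0.0118 and 0.0108. The O/E was 1.33 and 1.17 in the limb libraries, 2.17 in body and 0.954 in head (1.14 and 0.775 in its 2 libraries). The mean was 1.41 ± 0.533 (SD, n = 4), with body above both limb replicates and head below them. When every primer was balanced to the same total of reads, the O/E was 0.890, 0.916, 1.88 and 1.01, so that the excess over 1 was lost in limb and kept in body, with head near 1. Without the most-read pair of the window it was 1.29, 1.14, 1.97 and 0.836.

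The next window (chr5:28793087-28821086), which contains the Shh 5′ end, had O/E values of 0.797 and 0.946 in the limb libraries, 0.979 in body and 0.900 in head. All lay below 1 and within a narrow range. The fragment that holds this end is centred in the window of Shh and counted there, so these pairs include no Shh fragment. The third window (chr5:28821087-28849086), in the gene desert, had the next highest mean O/E (1.19). Its values were 0.905 and 0.975 in the limb libraries, 0.662 in body and 2.23 in head. The mean was carried by the second head library, with 3.30 against 1.21 in the first, and 789 of the 1060 reads of that library lay on 1 primer pair. The fourth window (chr5:28849087-28877086) followed with 0.973 over only 10 pairs.

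The lowest mean O/E values were 0.159 at chr5:29381087-29409086, 0.262 at chr5:29437087-29465086 and 0.282 at chr5:29409087-29437086, in the gene desert. The isolated contacts raise the expected value at these separations in limb and head, and without them the means were 0.296, 0.281 and 0.456. The last window then had rank 22 of 28, and the third lowest lay at chr5:28933087-28961086 (0.357), the lowest window of body (0.211). The windows with the highest mean O/E kept their order. When the domain was cut into 4 equal parts, from the Shh end to the Rnf32 end, the O/E was 0.665, 0.509, 0.592 and 0.299 in limb replicate 1. It was 0.696, 0.515, 0.556 and 0.352 in limb replicate 2, 0.766, 0.536, 0.499 and 0.355 in body, and 0.850, 0.583, 0.607 and 0.369 in head. Without the isolated contacts the part with Rnf32 had 0.498, 0.442, 0.357 and 0.532 in limb replicates 1 and 2, body and head, and the part with Shh 0.678, 0.709, 0.767 and 0.886. With and without them, the part with Shh had the highest O/E and that with Rnf32 the lowest in all 4 samples, but in limb replicate 1 the 4 parts then lay close together (0.498 to 0.678). Pairs within the domain enter the expected value only up to 784 kb, so the Shh and Rnf32 parts are divided by unlike sets of pairs. The IF of the Shh part was 0.00622, 0.00692, 0.00441 and 0.00949 in limb replicates 1 and 2, body and head. That of the Rnf32 part was 0.00768, 0.00719, 0.00396 and 0.00844, higher than the Shh part in limb and lower in body and head.

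The place of SBE4, a forebrain enhancer of Shh, was read from the study's locus map. Its window (chr5:29101087-29129086) had an O/E of 0.492 and 0.635 in the limb libraries, 0.664 in body and 0.729 in head. The 2 head libraries had 0.523 and 0.947, with body between them. The window of Rnf32 (chr5:29521087-29549086), the gene of the domain nearest to Nom1, had 0.465 and 0.466 in the limb libraries, 0.318 in body and 0.469 in head. Its IF was 0.00948 and 0.00951 in the limb libraries and 0.00962 in head, and 0.00427 in body. In IF, body thus lay below limb and head at Rnf32 and close to them at Shh.

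**Figure D2:**
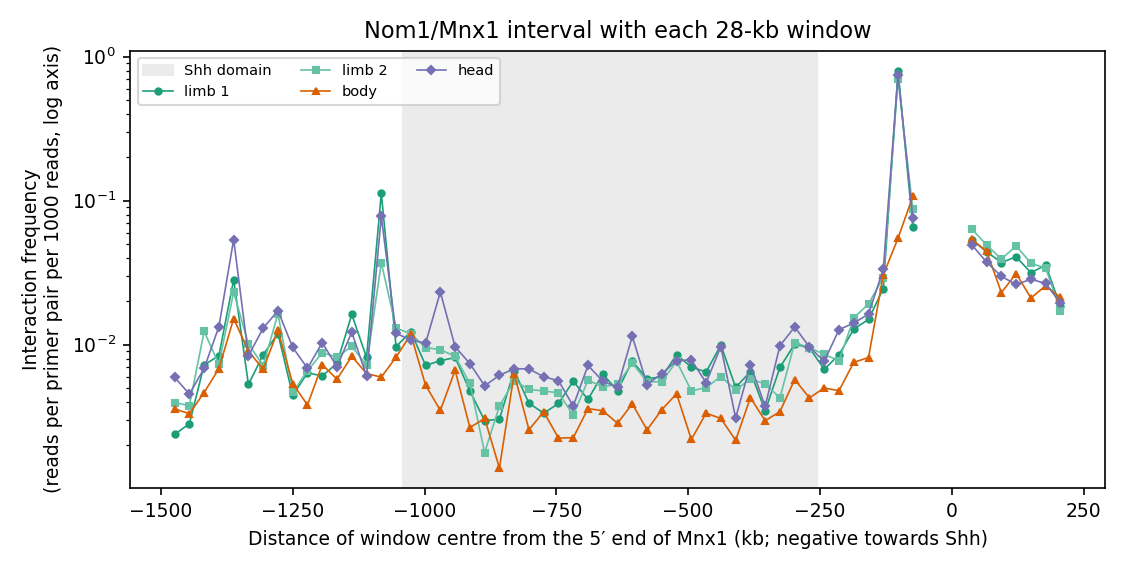
Interaction frequency of the Nom1/Mnx1 interval with each 28-kb window of the Shh region (reads per primer pair per 1000 reads, log axis) against distance from the 5′ end of Mnx1, with the Shh domain shaded and 1 line per sample. In the window of Shh, at the far left of the shading, the 4 samples lie between 0.0108 and 0.0123, while at Rnf32, at the right edge, body (0.00427) lies below the others (0.00948 to 0.00962).

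Mnx1 was read with the Shh domain less often than Nom1 in the deposited counts, an order that turned in limb and head once primer totals were balanced. The Mnx1 fragment drew 153 and 324 reads in the limb libraries, 52 in body and 378 in head over its 78 pairs, with an IF of 0.00290, 0.00242, 0.000631 and 0.00245. The Nom1 fragments drew 2453, 6202, 2530 and 8668 reads, with an IF of 0.00661, 0.00659, 0.00436 and 0.00798. In IF, Mnx1 was lower than Nom1 in every sample, and body was the lowest for both genes. The O/E of Nom1 was 0.511 and 0.534 in the limb libraries, 0.597 in body and 0.585 in head. That of Mnx1 was 0.217, 0.198, 0.0894 and 0.180, so in O/E body was the lowest for Mnx1 only. At the same separation, the Mnx1 to Nom1 ratio was 0.466 and 0.349 in the limb libraries, 0.131 in body and 0.333 in head (geometric mean 0.290, exact sign-flip permutation p = 0.13). Against the forward Nom1 fragments only, the primer direction of the Mnx1 fragment, the ratio was 0.354, 0.254, 0.0531 and 0.198 (geometric mean 0.176). Against all Nom1 fragments it was 1.21, 1.30, 0.752 and 1.34 (geometric mean 1.12) when every primer was balanced to the same total of reads. The order of the genes thus depended on how the primers were scaled. Across the 21 fragments of the interval, O/E with the domain followed the reads that the same fragment drew from the rest of the Shh region (Spearman's rho 0.751 and 0.905 in the limb libraries, 0.804 in body and 0.777 in head). The points share library and primer efficiency, and the part of the primer in the gene difference was not tested.

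The fragments of Nom1 differed from each other more than the genes did. The forward fragment with the Nom1 5′ end (chr5:29757662-29764922), whose cut sites are printed above, had an O/E of 1.19 and 1.17 in the limb libraries, 1.48 in body and 0.975 in head, the highest mean of the 21 fragments (1.20). The forward fragment with its 3′ end (chr5:29777534-29781541) had 0.816 and 0.982 in the limb libraries, 1.08 in body and 1.25 in head (mean 1.03). Between these ends, the other 5 Nom1 fragments had means of 0.124 to 0.496. The Mnx1 fragment, with 0.217 and 0.198 in the limb libraries, 0.0894 in body and 0.180 in head, ranked 18th. Upstream of Mnx1, the forward fragment at chr5:29809880-29815593, which overlaps no gene, reached a mean of 1.03, while the fragment at chr5:29816517-29820938 had the lowest (0.0215). Within Nom1, fragments with a high and a low O/E thus lay within the length of a single gene.

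**Figure D3:**
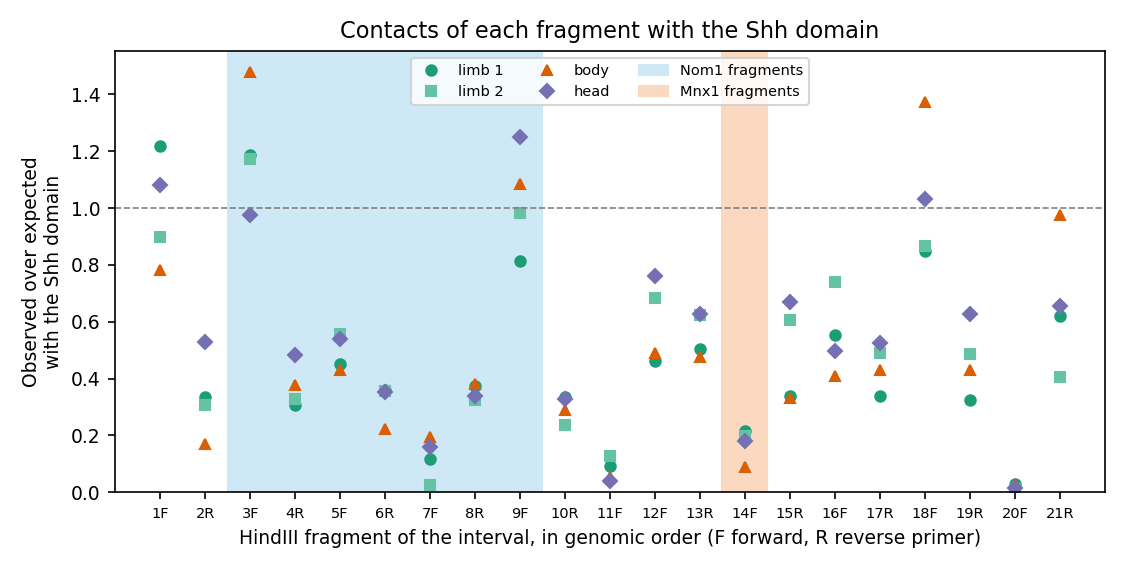
Observed over expected ratio with the Shh domain (linear axis, dashed line at 1) of each of the 21 fragments of the interval in genomic order, with 1 marker per sample, F and R for forward and reverse primers, and shading over the Nom1 and Mnx1 fragments. The fragment of the Nom1 5′ end (fragment 3) has a mean of 1.20 and the Mnx1 fragment (fragment 14) a mean of 0.171.

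Of the pairs that join the genes themselves, Nom1 had 7 with the 2 fragments of Shh, and these drew 88 and 147 reads in the limb libraries, 104 in body and 115 in head. Their O/E was 1.97 and 1.21 in the limb libraries, 2.62 in body and 0.716 in head, in the order of the whole Shh window. Mnx1 was paired with only 1 Shh fragment (chr5:28782635-28789524), because the other carries a forward primer as the Mnx1 fragment does. That pair drew 4 and 3 reads in the limb libraries, 7 in body and 10 in head, so no difference between tissues was detectable at this depth. The most-read Mnx1 pair joined it to the fragment at chr5:28770697-28780563, which ends 2791 bases beyond the 3′ end of Shh. It drew 18 and 41 reads in the limb libraries, 19 in body, with 22 and 51 in the head libraries, and was the only one of the 5 most-read Mnx1 pairs with reads in all 5 libraries.

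The 5 members with the highest mean IF included 3 Nom1 pairs. The highest joined the Nom1 3′ fragment to chr5:28821671-28827662, in the gene desert 955 kb away, with 69 and 241 reads in the limb libraries, 17 in body, with 111 and 789 in the head libraries. The second joined a 133-base fragment upstream of Nom1 (chr5:29755324-29755456) to chr5:29319273-29320195, with 89 and 179 reads in the limb libraries, 0 in body, with 19 and 295 in the head libraries. Both were low in body, and in both the head libraries differed several-fold from each other. The Nom1 5′ fragment was read with the fragment at the 3′ flank of Shh 22 and 52 times in the limb libraries, 79 times in body, with 103 and 59 times in the head libraries. It was also read with the Shh fragment at chr5:28782635-28789524 31 and 47 times in the limb libraries, 55 times in body, with 45 and 29 times in the head libraries. Among the 5 members with the highest mean IF, all but the second had reads in all 5 libraries. The IF of the pair with the 3′ flank was 0.0325 and 0.0303 in the limb libraries, 0.0748 in body and 0.0818 in head. That of the pair with the Shh fragment was 0.0459, 0.0274, 0.0521 and 0.0374, with body close to limb replicate 1. The same Shh fragment was read with chr5:29806189-29807449, upstream of Mnx1, 41 and 62 times in the limb libraries, 23 times in body, with 30 and 116 times in the head libraries. One further pair, of chr5:29815594-29816516 with chr5:29514013-29518402 next to Rnf32, held 233 reads in the first head library, 15 in body and 0 in the other 3 libraries.

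Body was lower than limb and head in the level of these contacts, and the mean over all pairs of the Shh region at these separations was lower in body too. The IF in body was 0.578 (counting interval 0.558 to 0.598) of limb replicate 1, 0.585 (0.569 to 0.603) of limb replicate 2 and 0.469 (0.457 to 0.483) of head. The limb replicates differed by less, with a ratio of 0.987 (0.960 to 1.02). The expected IF of all pairs of the region at the same separations was also lower in body, at 0.536 and 0.581 of the limb replicates and 0.521 of head. The O/E in body was therefore 1.08 and 1.01 times that of the limb replicates and 0.901 times that of head. Without the isolated contacts these O/E ratios were 0.866, 0.916 and 0.770, all below 1. With balanced primer totals the O/E was 0.635 and 0.593 in the limb libraries, 0.542 in body and 0.717 in head, again lowest in body. Counted as the share of pairs with a read, body was 1.34 times limb and 1.12 times head, the opposite direction to the IF. Body is 1 library, so none of these differences has a replicate check on the body side.

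By window, body lay below the limb mean in 26 of the 28 windows of the domain, with a median ratio of 0.573 (0.373 to 1.29). It lay below head in 27 of 28, with a median ratio of 0.537 (0.150 to 1.09). Between the limb replicates the ratio ran from 0.581 to 1.53 with a median of 0.967. With the 2 head libraries summed, the window of Shh was the only one where body exceeded head (1.09). The body to limb ratio of this window (0.974) had rank 3 of the 28. Taken singly, the first head library had an IF of 0.0119 there, slightly above body (0.0118), and the second had 0.00952. The excess of body over head thus rested on the second head library. The isolated contacts stayed in the read totals of these ratios, which lowers the IF of limb and head relative to body.

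**Figure D4:**
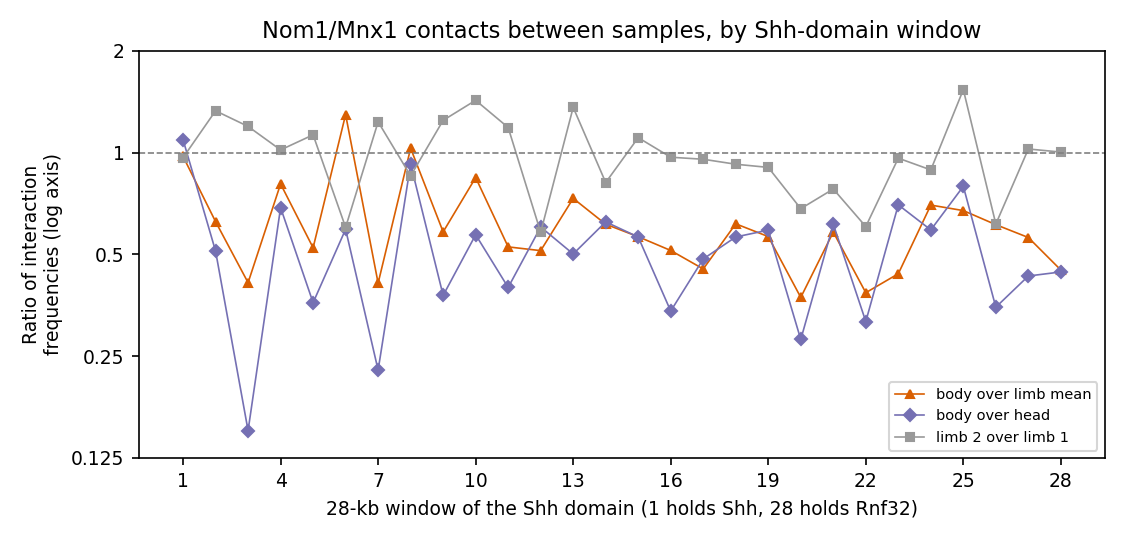
Ratios of interaction frequency with the Nom1/Mnx1 interval (log2-spaced axis, dashed line at 1) in each 28-kb window of the Shh domain, for body over the limb mean, body over head, and limb replicate 2 over limb replicate 1. The median ratios were 0.573, 0.537 and 0.967, and in the window of Shh the first 2 ratios were 0.974 and 1.09.

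To test single window pairs, body was compared with limb and head over the whole Shh region by edgeR's quasi-likelihood test on reads per pair of 28-kb windows. The spread came from the limb replicates and head, and body was assumed to vary like them. Of 1881 window pairs tested, 115 (6.11%) passed a Benjamini-Hochberg adjusted p of 0.05, 88 higher and 27 (1.44%) lower in body. All 84 member window pairs were tested and 2 (2.38%) passed, both lower in body. That share was below the 6.11% of all window pairs called in either direction and near the 1.44% called lower in body. The median log2 ratio of the members was -0.50, with 67 of 84 lower in body. It was -0.21 over the 1067 other window pairs at the same separations, of which 17 (1.59%) passed, and -0.08 over all. The members' median thus lay below that of window pairs at the same separations.

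The first window pair that passed joined the window with the 5′ end of Nom1 (chr5:29745087-29773086) to chr5:29297087-29325086 in the gene desert. It drew 205 and 332 reads in the limb libraries, 54 in body and 623 in head (log2 ratio -2.0, SE 0.51, edgeR adjusted p = 0.0269). The other joined chr5:29773087-29801086, with the 3′ end of Nom1, to the window at chr5:28821087-28849086. It drew 78 and 323 reads in the limb libraries, 32 in body and 1001 in head (log2 ratio -2.75, SE 0.75, edgeR adjusted p = 0.0389). Each holds one of the most-read primer pairs described above, and without these the log2 ratios were -1.04 and -1.0 (edgeR adjusted p = 0.490 and 0.849). Without head they were -1.90 and -1.94 (edgeR adjusted p = 0.129 and 0.182).

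No member window pair with Shh passed. The 3 windows of the interval had log2 ratios of 0.68 (SE 0.38), 0.56 (SE 0.52) and 0.09 (SE 0.37) with the window of Shh, from Nom1 to the far side of Mnx1, with edgeR adjusted p of 0.460, 0.752 and 0.977. With the window of the Shh 5′ end, whose pairs include no Shh fragment, they were -0.61, -0.35 and -0.20. With that of SBE4 they were -0.14, -0.68 and -0.09, and none in either window passed the threshold. With the window of Rnf32 they were -0.46, -0.60 and -1.19, of which the last, on the Mnx1 side, had 271 and 765 reads in the limb libraries, 144 in body and 767 in head (SE 0.37, edgeR adjusted p = 0.0807). The ratios were therefore above 0 at Shh and below 0 at Rnf32, without any passing the test.

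With body, limb and head as 3 groups in one edgeR fit, the spread came from the limb replicates alone, since body and head are 1 sample each. In this fit 91 of 1881 window pairs (4.84%) passed for body against limb, none of them a member, and 92 (4.89%) for body against head, 1 of them a member. For limb against body and head, 0 of 1874 (0%) passed by edgeR, 41 had an unadjusted p under 0.05, and none of these was a member.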

How the data were processed

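The authors sequenced 5C libraries on an Ion PGM and ran the reads through a 5C pipeline for Torrent data, on Galaxy. Their deposited files give, without normalisation, the read counts of each forward fragment with each reverse fragment (HindIII, mm9). The aligner is not given in the sources used here.

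Counts were summed over the 2 head libraries and divided by the total of the deposited counts of the sample. Interaction frequencies are means over all primer pairs, times 1000. Expected values are means over all pairs of the Shh region in the same 28-kb step of separation, and ratios to other pairs weight each step by its members. A fragment was given to a gene by an overlap of at least 1 base. PCR reads carry no molecular identifiers, so only counting error is covered by the Wilson 95% intervals and by the floor of 3 reads. Isolated contacts, at 84 kb or more, had 100 or more reads and 20 or more times those of any pair of the nearest primers (2 to either side) in 2 or more libraries. They were taken out of both the pairs and the total.

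Sets of pairs were compared within each sample. The log2 ratios of limb 1, limb 2, body and head were tested against 0 by an exact two-sided sign-flip permutation test. This test takes the samples as units, the limb replicates included, and compares no tissue with another. Nothing says that the limb libraries came from separate litters, so p-values hold for these samples only. Window pairs were tested with the quasi-likelihood test of edgeR 4.0.16 under R 4.3.3, after filterByExpr and TMM. The common biological coefficient of variation was 0.357 and the TMM factors were 1.03, 1.09, 0.810 and 1.10 for limb 1, limb 2, body and head. The scripts were tested on simulated data. Other steps ran in Python 3.11.15 with pandas 2.3.3, scipy 1.17.1, numpy 2.4.6, matplotlib 3.10.9 and pysam 0.24.0, with the NCBIM37 sequence (mm9) and its GENCODE annotation.

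The windows named are those of Shh, its 5′ end, SBE4 and Rnf32, the 3 with the highest and the 3 with the lowest mean O/E, and member window pairs past the edgeR threshold (up to 5). The primer pairs named are the 5 with the highest mean interaction frequency and up to 3 with the largest share of a library's member reads. The Mnx1 pairs and single fragments were named after their values were seen. The members, windows and tests were chosen with earlier results of these data known. Alternatives were capping at the 99th percentile, balanced primer totals, the share of read pairs, other windows, DESeq2 1.42.0, library totals and each library left out. Single most-read pairs were left out, Mnx1 was set against forward Nom1 fragments, and O/E was recomputed by window, part and fragment without isolated contacts, after the data were seen.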

Additional observations from a re-analysis of the deposited data

Results flagged for a closer look

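Outside the Shh domain, 2 isolated contacts of the interval stood out, and neither is a member. Both count in the read totals that divide each IF and in the window pairs tested by edgeR, except where isolated contacts were left out. The fragment at chr5:29806189-29807449, upstream of Mnx1, was read with the fragment at chr5:29703904-29705290, at the 5′ end of Lmbr1 102 kb away, 29645 and 66035 times in the limb libraries, 668 times in body, with 27075 and 58417 in the head libraries. This was 4.39% and 3.85% of all reads in the limb libraries, 0.0633% in body, with 2.58% and 6.27% in the head libraries. The fragment at chr5:29815594-29816516, also upstream of Mnx1, was read with chr5:28723250-28724961 in Rbm33, 1092 kb away, 5111 and 3915 times in the limb libraries, 59 times in body, with 2460 and 7614 in the head libraries. Body was the lowest library for both contacts, and the cause was not tested.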

How the results depend on the processing

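The members stayed below pairs within the domain and below Lmbr1 pairs under every alternative run. The mean O/E of 0.504 moved to 0.570 without isolated contacts, 0.579 with capping and 0.622 with balanced primer totals. The En2/Cnpy1 ratio of 0.967 turned to 1.02 without isolated contacts (exact p = 1), and the Mnx1 to Nom1 ratio of 0.290 to 1.12 with balanced totals (exact p = 0.5). Body over limb (0.582) was 0.523 without isolated contacts and 0.523 with balanced totals, and body over head (0.469) was 0.421 and 0.417, or 0.483 with capping. As the share of pairs with a read (48.5% in place of the interaction frequency), they turned to 1.34 and 1.12. The Usp22 ratio (16.7) ran from 13.9 to 33.5 when 1 library was left out, the latter without the second head library. The 115 window pairs called by edgeR were 5 with single primer pairs, 66 with 56-kb windows and 0 for limb against body and head. With library totals 89 were called, 45 of them higher in body, 3 members among them, against 88 of 115 with TMM; the median of all window pairs was then -0.48 and that of the members -0.91. DESeq2 called 141, 3 of them members. Without head, or without the 2 most-read member pairs, no member was called. No paired analysis was possible because the labels give no replicate number shared across tissues and body is 1 library. With 4 samples, no sign-flip test could pass 0.05.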
